A study of Arabidopsis thaliana with 26 samples.

Results

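H3K9me2 islands are HindIII restriction fragments of the chromosome arms of Arabidopsis thaliana that carry dimethylated lysine 9 of histone H3 although they lie outside the pericentromere. An island was defined as a fragment with an H3K9me2 density of at least 20, at least 2.5 Mb from its centromere and with at most 90 genomic DNA reads, leaving out the short arms of chromosomes 2 and 4. The density gives how much of a fragment, in percent of its bases, was covered by reads of a published chromatin immunoprecipitation (ChIP) experiment on other plants, 1 data set without replicates. Of all 66846 fragments, 925 were islands, and 48591 other arm fragments with a density under 20 served for comparison. Members were chosen by density, distance and genomic DNA reads, so these values describe them and were not tested. The 4C reads took no part in the choice.

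In plant nuclei, H3K9me2 marks silent chromatin. It is maintained together with DNA methylation by enzymes that read one mark and write the other, and it lies mostly on transposons and repeats. In Arabidopsis most of this chromatin surrounds the centromeres and gathers in microscopically visible chromocenters, while shorter silenced stretches are scattered through the gene-rich arms. The question addressed here is how often distant viewpoints contacted these scattered stretches.

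Contacts were measured by 4C, in which chromatin is crosslinked, cut and ligated, and everything ligated to one selected fragment, the viewpoint, is amplified and sequenced. The 26 libraries came from 13 viewpoints with biological replicates A and B, all from aerial tissue of 14-day-old seedlings of the Col-0 accession. No mutant, treatment or other tissue was included. The viewpoints AG, CKI1, FIS2, FLC, FWA, MEA F6, MEA F8 and PHE1 were sequenced first and AT1G51860, AT3G44380, SWN, hk4s and YAO later. Amplification primers of the first group carried the sequencing adapter, while adapters were ligated afterwards for the later group. MEA F6 and MEA F8 are neighbouring fragments at one gene, and hk4s lies inside the heterochromatic knob of chromosome 4. The second enzyme was NlaIII for MEA F6, MEA F8 and the 5 later viewpoints and DpnII for the other 6. The sources conflict here, as the methods name NlaIII and a supplementary table NlaIV for those 7, and the methods' enzyme was used. Whole aerial tissue mixes many cell types, so a contact value is an average over their nuclei.

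A 4C read starts at the HindIII site at a fragment end and was aligned over 30 bases, so the sequence beside that site decides whether a read can be placed. Transposon copies share these bases. The ends of 5 islands are printed to show this range. They are an island that is almost wholly covered by H3K9me2, the island with the highest and the one with the lowest mean contact, an island with reads in all 22 of its libraries, and an island with unique ends and reads in few libraries. Capitals mark the HindIII site, followed by the first 24 bases of the read. The left end is read on the plus strand and the right end on the minus strand. Positions are in TAIR10.
Chr5:15672348-15672739, left end: AAGCTTatggttctgttccaaaggatgtga
Chr5:15672348-15672739, right end: AAGCTTtgtatggattaaaacaagctcctc
Chr5:15356592-15356713, left end: AAGCTTtggttagtgccccaatagtgcaag
Chr5:15356592-15356713, right end: AAGCTTcttatcttttctttgaccaagaac
Chr1:5680533-5681417, left end: AAGCTTagtgagctgttgaaagattgggga
Chr1:5680533-5681417, right end: AAGCTTaaacaacatttccacaatgtaatc
Chr5:14382086-14382841, left end: AAGCTTcatcgatgggaagtcagaggagat
Chr5:14382086-14382841, right end: AAGCTTcagcggcagccagcttcgcagaaa
Chr3:10479124-10479579, left end: AAGCTTcttggacagaggagttgtgagaat
Chr3:10479124-10479579, right end: AAGCTTccaggatcgctctataaaggtatt

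Each of the 30-base reads from the first island matched 2 places in the nuclear and organelle genomes, and those of the third matched 4 places on the left and 2 on the right. The fourth island's ends matched 6 and 2 places. Both ends of the second and of the fifth island were unique. Over all islands, 503 (54.4%) had unique reads at both ends, against 92.5% of the comparison fragments. At least 1 end with several matches was found in 410 islands (44.3%) and in 5.23% of the comparison fragments. Reads with several matches had been shared among the matching fragments according to nearby reads, so that the read count of such an island also draws on its copies.

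The islands covered 1585 kb, which is 1.73% of the arm length examined. They made up 1.87% of the arm fragments and 11.2% of the 8262 fragments of the genome with a density of 20 or more. The frequency of islands fell from 8.62% of fragments at 2.5 to 3 Mb from the centromere to 4.10% at 3.5 to 4 Mb, stayed between 1.66% and 2.17% from 4 to 8 Mb, and was 0.303% beyond 13 Mb. The median distance was 4.95 Mb for islands and 8.35 Mb for comparison fragments. Of the islands, 451 lay at 5 Mb or more and 91 at 10 Mb or more. The most distal one lay 15.4 Mb from its centromere on the right arm of chromosome 2.

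**Figure D1:**
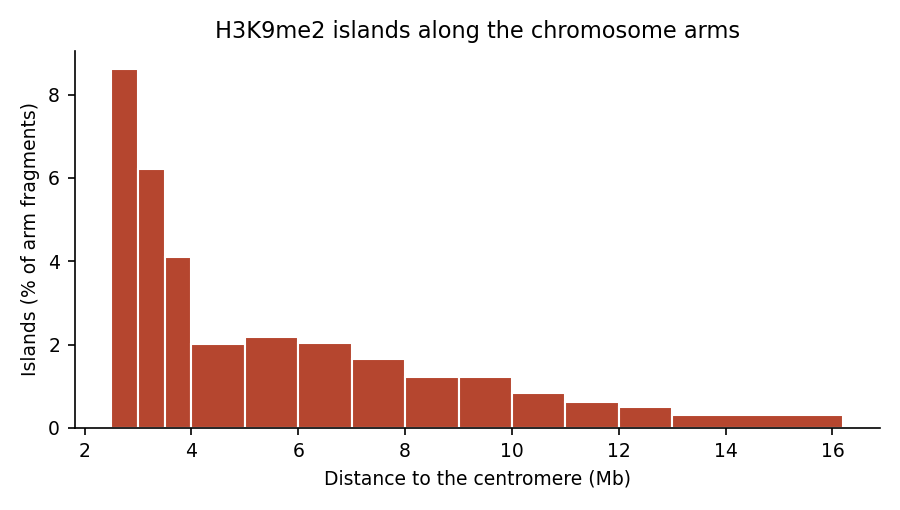
Islands as a percentage of the arm fragments (vertical axis) by distance to the centromere in Mb (horizontal axis), over 8 arms. The share was 8.62% in the bin next to 2.5 Mb and 0.303% in the last bin.

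All 8 arms held islands, from 57 on the left arm of chromosome 5 to 156 on its right arm. Relative to the number of fragments the right arm of chromosome 3 was the richest, with 105 of 3941 fragments (2.66%), and the left arm of chromosome 5 the poorest, with 1.16%. On the right arm of chromosome 2, 46 of the 154 islands lay at 5 Mb or more, and the median distance was 3.38 Mb. On the right arms of chromosomes 1 and 4 the medians were 6.16 and 5.78 Mb. The islands of these arms were thus spread farther outward.

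Neighbouring islands formed runs. Allowing 1 other fragment between neighbours, the 925 islands made up 383 runs, of which 184 were a lone fragment. The 199 runs of at least 2 islands held 741 islands and had a median span of 5.57 kb. The run with the most islands had 16 of them in 9.72 kb on chromosome 4 (TAIR10, 9069158-9078872), 5.12 Mb from the centromere, where the annotation lists the pseudogenes AT4G16010 and AT4G16020 and the small protein-coding genes AT4G16008 and AT4G16015. A run of 12 on chromosome 1 (12402005-12409910) held AT1G34070, annotated as a Copia-like polyprotein, the main protein of one retrotransposon family, with 2 pseudogenes. A run of 9 on chromosome 3 (17409760-17416924) held AT3G47270 and AT3G47280, and one of 9 on chromosome 4 (8900577-8907585) held AT4G15590, all of them pseudogenes in RefSeq. The fifth run, of 8 islands (chromosome 5, 14573498-14590349), held 2 pseudogenes and reached CAT3, which encodes a cationic amino acid transporter. The widest run was another, 21.2 kb on chromosome 1 with 4 islands.

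These runs differed in how well their ends could be placed. In the run of 16, 13 islands had an end with several matches, and in the run on chromosome 3 all 9 had. In the run of 12 and in the run of 9 on chromosome 4 no island had. Contact relative to comparison fragments of like arm, distance and length, averaged over viewpoints, could be formed for 7 islands of the run of 16, with a median of 1.01, and for 9 islands of the run of 12, with a median of 0.991. The median was 0.902 over only 3 islands of the run on chromosome 3, 0.790 over 6 islands of the run of 9 on chromosome 4 and 1.08 over the run of 8. The values spread widely, from 0.545 to 1.26 in the run of 16 and from 0.375 to 2.78 in the run on chromosome 4 with unique ends.

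Most islands carried transposons. An annotated transposable element was present on 776 islands (83.9%) and a transposable element gene on 701 (75.8%). In comparison fragments of like arm, distance and length the shares were 26.4% and 5.08%. A feature that the files call si_gene, a term the sources used here do not explain, was present on 92.6% of islands and 38.9% of these comparison fragments. The shares ran the other way for genes, with an annotated gene on 28.2% of islands against 83.5%, coding sequence on 24.3% against 76.8%, and a 5′ UTR on 7.91% against 28.3%. Pseudogene annotation in the files was similarly rare in both, at 2.60% and 2.64%. Altogether 655 islands (70.8%) carried a transposon and no protein-coding gene, 139 both, 100 a gene and no transposon, and 31 neither. No test was made of these shares, since fragments of one element are not independent.

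**Figure D2:**
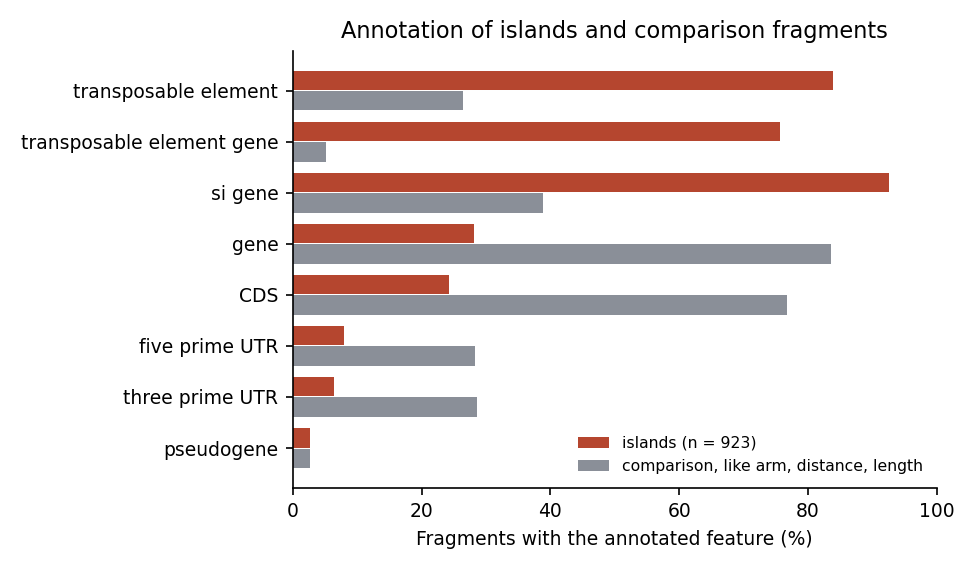
Percentage of fragments (horizontal axis) that carry each annotated feature, for islands (red) and for comparison fragments weighted to the islands' arm, distance and length (grey). Transposable elements stood at 83.9% against 26.4% and genes at 28.2% against 83.5%.

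By the RefSeq annotation of the same genome, 583 islands (63.0%) touched only pseudogenes, the class in which RefSeq keeps many transposon genes. A further 61 touched no gene record, and 231 touched the coding sequence of a protein-coding gene. Another 25 touched an exon outside the coding sequence, and 25 lay wholly within introns. The islands touched 288 protein-coding genes, 254 of them with a single island. The 8 genes with at least 3 islands were named after their values were seen. AT3G05410, which encodes a PsbP family protein of photosystem II, had the most, with 6 of its 9 fragments, all intronic, all with an annotated transposable element, at densities of 20.5 to 57.4 and 12.03 Mb from the centromere. In AT1G58602, an NB-ARC and leucine-rich repeat disease resistance gene, 3 of 20 fragments were islands, again intronic and with a transposable element. The same held for 3 of 5 fragments in each of AT4G22410, a snRNP-associated-like protein gene, and AT4G11373, annotated with a kinase catalytic domain. Thus in these 4 genes the islands occupied transposon-bearing introns.

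The other 4 genes differed from this pattern. AT1G34070 is the Copia-like gene of the run of 12, and in AT5G45570, annotated as an Ulp1 protease family gene, and AT5G39770, annotated with a restriction endonuclease-like domain, the 3 islands were not confined to introns. In UBQ13, a polyubiquitin gene that the annotation describes as interrupted by mitochondrial DNA in Col-0, 3 of 4 fragments were islands, and all 3 had an end that also matched an organelle genome. Only 4 islands in all had such an end. The part of organelle DNA in the reads of these fragments was not tested.

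Genes known for silenced repeats or for their part in DNA methylation were looked up by name. FWA, SDC, RPP4, RPP5, SNC1, QQS, PAI1, PAI2 and PAI3 were listed for silenced repeats or gene copies at or near them, not necessarily in Col-0. IBM1, ROS1 and EDM2 encode factors that limit or process such silencing. Of 13 names 12 were matched, and none of these 12 held an island. RPP7 had no match by name, so whether its locus holds an island is not answered by this list. QQS lies 1.24 Mb from its centromere, inside the excluded zone, so that 11 could have held one. Each of these 11 has only 1 to 9 fragments, and 1.87% of all arm fragments were islands, so their absence says little. Only fragments overlapping the gene were examined, so repeats beside a gene could be missed. RPP4, a disease resistance gene of a repeated cluster, came closest with a highest density of 14.3. All others matched had no fragment with a density of 5 or more, and FWA, whose promoter repeats are methylated, had 0.451 on its only fragment.

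The other published marks, which did not enter the choice of the islands, set them apart from the comparison fragments. The medians below are over all comparison fragments, not matched for arm, distance or length. Means weighted to like arm, distance and length were 34.0 against 3.96 for H3K27me1 and 12.8 against 34.4 for H3K36me3. H3K27me1, a second mark of plant heterochromatin, had a median density of 32.0 on islands and 0.970 on comparison fragments. The interquartile ranges of 20.4 to 46.5 and 0 to 3.87 did not overlap. Histone H3 itself was at 81.8 against 49.8. Marks of transcribed genes were lower, with H3K36me3 at 7.33 against 32.4 and H3K4me2 at 3.82 against 31.5. H3K9ac had medians of 1.68 and 8.43 and H3K18ac of 24.4 and 45.8. The median transcription density was 0 on islands and 11.8 on comparison fragments. H3K27me3, the Polycomb mark of repressed genes, had nearly the same median in both, 6.05 and 5.62. The ChIP input also differed, at 59.1 against 40.5, and input and marks come from one published data set. The part of alignability and input in these differences was not tested.

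**Figure D3:**
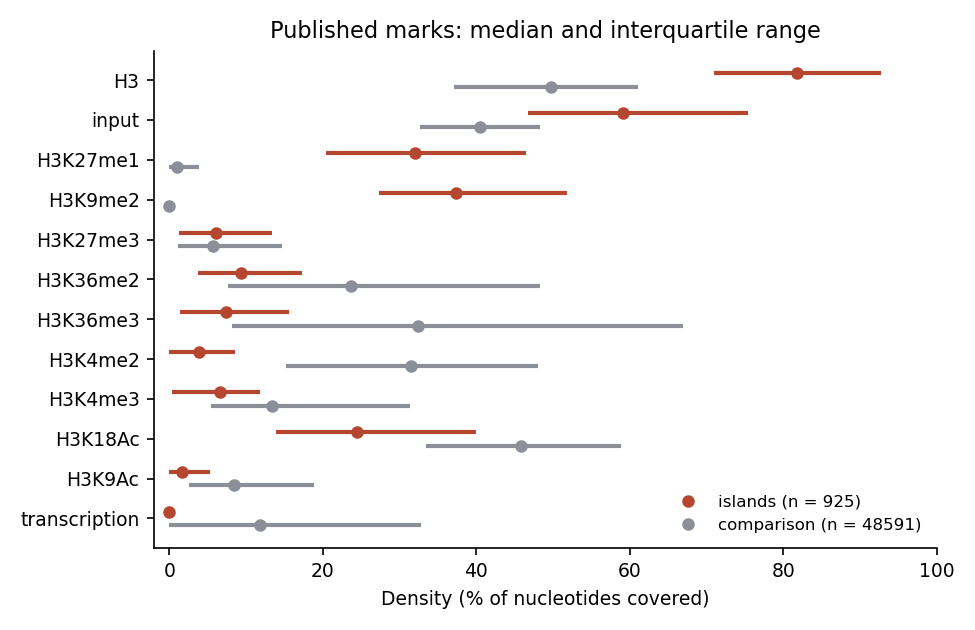
Median (point) and interquartile range (line) of the density of each published mark, in percent of nucleotides covered (horizontal axis), for 925 islands (red) and 48591 comparison fragments (grey). The comparison fragments were not matched for arm, distance or length. H3K27me1 and H3 lay higher on islands, the H3K4 and H3K36 methylations and the acetylations lower, and the input was also higher on islands. H3K9me2 was used to choose the islands.

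Islands varied in strength. The density was 20 to 40 in 523 islands, 40 to 60 in 261 and 60 or more in 141, with a median of 37.3. The 5 highest were small fragments on chromosomes 1, 2 and 5, at densities of 97.2 to 105, where values above 100 stand as deposited. Of these, 4 were 15 to 83 bp long and gave no contact values, since they had no second site. The fifth, the first of the printed islands, measured 392 bp within the pseudogene AT5G39155 and had 26.4 genomic DNA reads, against a median of 9 over islands and over comparison fragments. Just inside the limit 76 fragments had a density of 20 to 22 and just outside it 73 had 18 to 20. A transposon was present on 73.7% and 68.5% of these, so the limit cuts a gradient.

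For contacts, reads at HindIII ends were scaled to 1000000 reads on all kept fragments of a library (RPM), counting only islands outside the arm of the viewpoint. A fragment was kept if a site of the second enzyme lay less than 1000 bp from an end. These sites were present for 749 islands with NlaIII and 765 with DpnII, and 691 passed with both. Between 629 and 747 islands entered per viewpoint, with 35109 to 40956 comparison fragments. The comparison mean was weighted to the islands' arm, distance to the centromere in bins of 1 Mb, and fragment length. Libraries held 501056 to 6549825 reads at HindIII ends, and reads fell on 37.0% to 93.2% of kept fragments. The shallowest libraries thus give little about a single fragment.

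The mean over islands was 5.62 to 10.5 RPM per fragment in the 26 libraries and the weighted comparison mean 6.11 to 9.46 RPM. The ratio was above 1 in 23 libraries. Over the 13 viewpoints the mean log2 ratio was 0.14 ± 0.11 (SD, n = 13), a 1.10-fold higher read number on islands. Of the 13 viewpoints 12 were positive, and an exact two-sided permutation of signs over viewpoints gave p = 0.00171 (adjusted p = 0.00399 over 7 tests). The SD between replicates, pooled over viewpoints, was 0.0741. All viewpoints were tested on largely the same islands, so the p-value covers the spread between viewpoints and not between islands.

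Counting only fragments with unique ends lowered this mean log2 ratio for the NlaIII viewpoints and not for the DpnII viewpoints. It also left fewer islands, 316 to 395 per viewpoint against 629 to 747. The part of read placement, of the islands left out and of the enzyme in this was not tested. With only fragments whose ends were both unique, the mean log2 ratio was 0.05 ± 0.17 (SD, n = 13), positive in 8 of 13 viewpoints (exact permutation p = 0.312). The 6 DpnII viewpoints had a mean of 0.19 with all fragments and 0.20 with unique ends, positive in 6 of 6 each time (exact permutation p = 0.0312, the smallest that 6 viewpoints allow). The 7 NlaIII viewpoints had 0.10 with all fragments and -0.08 with unique ends, positive in 6 and in 2 of 7 (exact permutation p = 0.109 and 0.0625). Islands with an end of several matches, set against comparison fragments of the same kind, gave 0.31 ± 0.19, positive in all 13. Without weighting by arm, distance and length the log2 ratio was -0.16 (p = 0.110 by the exact test), with 4 of 13 viewpoints positive. The direction of the difference thus depended on the matching, and its call over all 13 viewpoints on the fragments with repeated ends.

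AT1G51860 on chromosome 1 and AG on chromosome 4 gave the highest ratios. The island mean from AT1G51860 was 8.97 RPM in replicate A and 7.66 in B, against comparison means of 7.10 and 6.34, log2 ratios of 0.34 and 0.27. From AG it was 7.44 and 7.61 RPM against 6.16 and 6.11, log2 ratios of 0.27 and 0.32. These 2 viewpoints parted when only unique ends were counted. AG kept log2 ratios of 0.28 and 0.31, whereas AT1G51860 had 0.07 and -0.34. AT1G51860 was also the viewpoint with the fewest kept reads, on average 326756 per library.

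MEA F6 was the only viewpoint below 0 in both replicates. Its island means were 6.97 and 5.62 RPM against 7.41 and 6.23, log2 ratios of -0.09 and -0.15. The neighbouring fragment MEA F8 had 6.63 and 6.93 RPM against 6.37 and 6.75, log2 ratios of 0.06 and 0.04. Since both are at the same gene on the left arm of chromosome 1, their difference lies between neighbouring fragments. With unique ends both were below 0 in both replicates, at -0.18 and -0.19 for MEA F6 and -0.003 and -0.18 for MEA F8.

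The viewpoint hk4s is the only one whose own fragment had a density above 20, at 37.0, with a mean of 18.8 over the 51 fragments around it. Its island means were 10.1 and 7.08 RPM against 8.10 and 6.40, log2 ratios of 0.32 and 0.15. Of the other 24 libraries, AT1G51860 A alone had a higher log2 ratio than hk4s A. YAO and SWN, which flank the knob on the same arm, had log2 ratios of 0.18 and -0.05 and of 0.08 and 0.07. With unique ends hk4s had 0.16 and -0.11, and its replicates lay on opposite sides of 0. YAO then had 0.10 and -0.07, and SWN was below 0 in both replicates, at -0.03 and -0.11.

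The remaining viewpoints lay between. PHE1, near a Polycomb-regulated MADS-box gene, had log2 ratios of 0.13 and 0.15, and FIS2, near the gene of a Polycomb subunit, 0.14 and 0.14. CKI1, at a histidine kinase gene near the chromosome end, had 0.10 and 0.21, and AT3G44380 0.13 and 0.07. FWA, a gene silenced in vegetative tissue, had 0.27 and 0.16, and FLC, the vernalization-regulated repressor of flowering, 0.24 and 0.10. In each of these 6 viewpoints both replicates were above 0 with all kept fragments. With unique ends AT3G44380 was below 0 in both, at -0.06 and -0.25, while the others stayed above 0 in both.

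**Figure D4:**
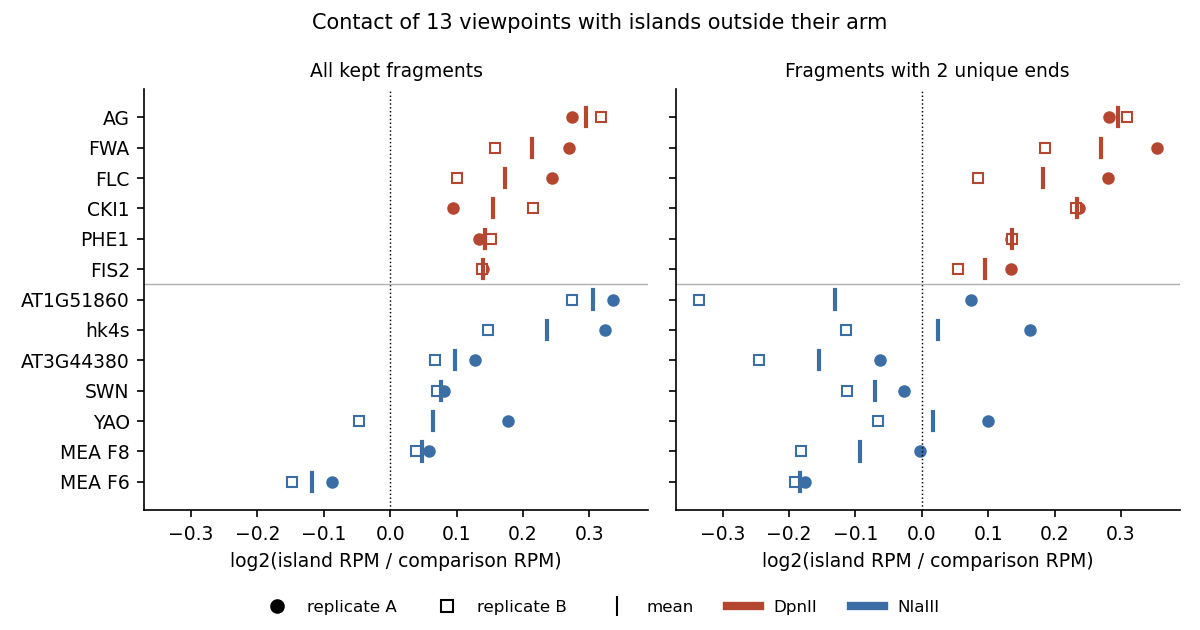
Log2 ratio of mean RPM on islands to the weighted mean on comparison fragments (horizontal axis) for each viewpoint (vertical axis), with replicate A (filled circle), replicate B (open square) and their mean (bar), for all kept fragments (left) and those with 2 unique ends (right). DpnII viewpoints (red) stayed above 0 in both panels, while NlaIII viewpoints (blue) fell from a mean of 0.10 to -0.08.

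Counting fragments instead of reads, 71.1% of islands had a read count above 0 on average over viewpoints, against 60.8% of weighted comparison fragments. A share of a read with several matches was enough for this, and such ends were more frequent on islands. The difference of 10.3 ± 2.91 percentage points (SD, n = 13) was above 0 in all 26 libraries (exact permutation p = 0.000244 over viewpoints, the smallest that 13 viewpoints allow, adjusted p = 0.000854). It ranged from 5.24 points for FWA to 15.3 for CKI1. With unique ends it was 1.33 points, above 0 in 15 of 26 libraries (p = 0.141 by the exact test). DpnII viewpoints fell from 10.9 points with all fragments to 4.07 with unique ends (6 of 6 above 0). NlaIII viewpoints fell from 9.85 to -1.02 points (2 of 7 above 0). Islands read in every library outside their arm also became rarer with unique ends. They numbered 71 of 691 (10.3%), where 1.18% of all 38391 arm fragments of the same filter were read in every library. Of islands with unique ends 1 of 365 (0.274%) was, with 0.58% of 36040 arm fragments in all.

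Against comparison fragments that carry a transposon but a density under 20, of which the arms held 8648, islands had more reads from all 13 viewpoints. The mean log2 ratio was 0.27 ± 0.07 (SD, n = 13, exact permutation p = 0.000244, adjusted p = 0.000854), a 1.21-fold difference. It was lowest for MEA F6, at 0.12, and highest for AG, at 0.41. With unique ends it was 0.19 (exact permutation p = 0.00195), a 1.14-fold difference, so that this comparison kept its side of the threshold over all 13 viewpoints. DpnII viewpoints alone then gave 0.30 (6 of 6 positive, exact permutation p = 0.0312). NlaIII viewpoints alone gave 0.09 (5 of 7 positive, exact permutation p = 0.125). Between 494 and 636 islands entered per viewpoint, and 222 to 307 with unique ends. Without weighting by arm, distance and length the log2 ratio was -0.24 (p = 0.00757 by the exact test), below 0.

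With all kept fragments, contact was highest in the classes of highest H3K9me2 density, and with unique ends it was not. Relative to arm fragments of density 0, the mean log2 ratio was 0.03 ± 0.11 above 0 to 5, -0.08 ± 0.19 at densities of 5 to 10, -0.01 ± 0.15 at 10 to 20, 0.12 ± 0.11 at 20 to 40, 0.13 ± 0.17 at 40 to 60 and 0.33 ± 0.33 at 60 or more (SD over 13 viewpoints). The share of fragments with unique ends fell along the same classes, from 94.0% to 80.8%, 68.0%, 64.4%, 52.1% and 21.3%. With unique ends the 3 island classes were at 0.03, 0.05 and -0.10, the last with only 30 fragments and an SD of 1.30. Within the islands, those of density 40 or more and those of 20 to 40 differed by 0.05 ± 0.16 on the log2 scale (exact permutation p = 0.300, n = 13). Just inside the limit of 20 the log2 ratio was 0.09 ± 0.23, and just outside it 0.13 ± 0.29.

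**Figure D5:**
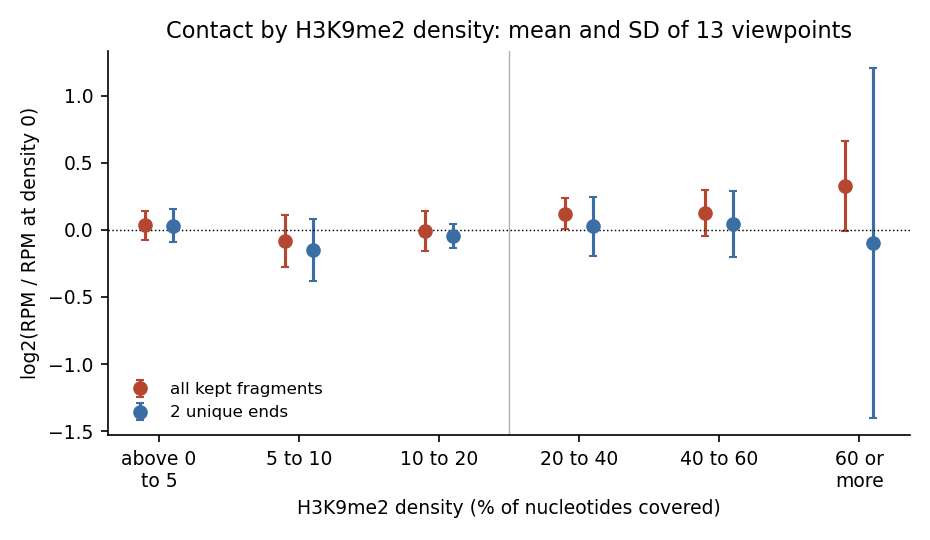
Mean and SD over 13 viewpoints of the log2 ratio of RPM to that of arm fragments with density 0 (vertical axis) by class of H3K9me2 density (horizontal axis), for all kept fragments (red) and those with 2 unique ends (blue). The grey line marks the limit for islands, and the class of 60 or more stood at 0.33 with all fragments and at -0.10 with unique ends.

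No difference between kinds of islands passed the test. Islands at 5 Mb or more from the centromere had a log2 ratio 0.05 ± 0.17 above that of nearer ones (exact permutation p = 0.295, n = 13). Islands without a protein-coding gene differed from gene-bearing ones by 0.01 ± 0.16 (p = 0.740 by the exact test, n = 13). The distal islands were at 0.17 ± 0.17 and the proximal at 0.12 ± 0.12, the gene-free at 0.15 ± 0.15 and the gene-bearing at 0.13 ± 0.09. Viewpoints of the later batch differed from those of the first by 0.02 (exact permutation test, p = 0.722, 5 against 8 viewpoints). The later viewpoints lie nearer to their centromeres, were all made with NlaIII and had their adapters ligated after amplification. Batch, position and adapter step thus cannot be told apart. Among NlaIII viewpoints alone the difference was 0.19 (exact permutation p = 0.0952, 5 against 2 viewpoints, the latter both at MEA).

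By arm, the mean log2 ratio was highest on the right arm of chromosome 5, at 0.29 ± 0.23 (SD, n = 13), and on the left arm of chromosome 1, at 0.28 ± 0.15 (n = 11). It was lowest on the arms of chromosome 3, at 0.01 ± 0.18 on the left and 0.03 ± 0.19 on the right. With unique ends the left arm of chromosome 1 stayed at 0.24, positive in 10 of 11 viewpoints, and the right arm of chromosome 5 fell to 0.02 ± 0.42. The order of the arms was not tested.

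Single islands varied far more than the mean. For 689 islands a mean over all viewpoints outside their arm could be formed, relative to comparison fragments of like arm, distance and length. Its median was 1.11, the middle 80% lay between 0.486 and 2.05, and 57.9% were above 1. Of 20596 comparison fragments in the same strata 43.9% were above 1, with a median of 0.922 and a middle 80% of 0.399 to 1.70. The highest, at 5.92, was the second of the printed islands, 122 bp of the pseudogene AT5G38383 with a density of 39.3. It had reads in 17 of 26 libraries, with a median of 3.81 RPM and a highest value of 48.3 RPM in MEA F8 A, and exceeded its comparison mean in 8 of 13 viewpoints. The next 2, at 4.52 and 4.11, also lay on chromosome 5, a 126-bp fragment without a gene record (9213754-9213879) and a 7743-bp fragment (9182080-9189822) that reached CLC-D, a chloride channel gene. Each is 2.53 to 2.55 Mb from the centromere, close to the limit of the rule.

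The printed island on chromosome 1, 885 bp at 9.41 Mb from the centromere and touching the pseudogene AT1G16620, stood at 3.95 and was above its comparison mean in all 11 viewpoints outside its arm. Its reads ranged from 3.82 RPM to 112 RPM in CKI1 B, with a median of 18.3, and none of its 22 libraries was without reads. Both its ends have copies elsewhere. The last of the 5, at 3.92, was a 6162-bp fragment on chromosome 2 (6116908-6123069) with unique ends, 3 pseudogenes and the gene AT2G14395, and a median of 22.2 RPM.

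At the low end, the printed island in the pseudogene AT5G36655 reached 0.0331 of its comparison mean, with a highest value of 1.90 RPM, and exceeded it in none of 13 viewpoints. Its genomic DNA read number, 1.76, was also low. The other 4 lowest, at 0.0877 to 0.123, all had unique ends and lay 2.59 to 3.21 Mb from the centromere, on chromosomes 1 and 3. Among them, the printed island in AT3G28153 was without reads in 22 of 26 libraries and had its highest value, 19.9 RPM, in AT3G44380 A. Another touched AT3G45770, annotated as an enoylreductase family gene, and was without reads in 13 of 24 libraries. The lowest islands thus had few reads. The lowest of all had a count above 0 in 15 of 26 libraries, but its median was only 0.0150 RPM and its ends have copies elsewhere.

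Fragments with the same density nearer to the centromere, between 0.1 and 2.5 Mb, were compared in the same way after the values for islands were seen. The 4442 fragments with a density of 20 or more exceeded the 6512 with less by a mean log2 ratio of 0.23 ± 0.13 (SD, n = 13), which is 0.09 ± 0.14 above that of islands (exact permutation p = 0.0376, higher in 10 of 13 viewpoints). With unique ends the ratios were 0.16 and 0.05, a difference of 0.11 ± 0.15 (exact permutation p = 0.0200, 10 of 13). Read numbers per fragment, not matched between these sets, ran the other way. They were lower near the centromere than on islands from 12 of 13 viewpoints, at a median of 0.702 of the island value. The exception was hk4s, with 10.1 RPM near the centromere and 8.64 RPM on islands, a ratio of 1.17. With unique ends the median was 0.836 and the ratio for hk4s 1.47, and 2 viewpoints, hk4s and PHE1, had more reads near the centromere.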

How the data were processed

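For each of 26 4C libraries the authors split reads by viewpoint primer, aligned 30 bases to TAIR10 with Bowtie 0.12.7 without mismatches, dropped reads with more than 25 matches and shared other reads with several matches by nearby reads within 50 kb. The deposited expected counts at HindIII ends, without normalization, were used, with expected counts of published genomic DNA reads. The deposited signal values are densities of published ChIP and transcription data computed by the authors, in percent of nucleotides covered. Feature numbers and distances were deposited per fragment. All 66846 fragments matched a HindIII digest of the reference. Deposited second-site distances were those of NlaIII in every file, so DpnII sites were located in the reference.

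Left out were fragments under 1 kb from the viewpoint or under 100 kb from a centromere, and those without a second site less than 1000 bp from an end. RPM was computed per library, averaged over islands and compared with comparison fragments by direct standardisation over strata of arm, 1-Mb distance bins and length (limits 500, 1000, 2000, 4000 and 8000 bp) with at least 5 comparison fragments. Replicates were averaged per viewpoint and tested by exact sign-flip permutation with Benjamini-Hochberg adjustment over 7 tests, using Python 3.11.15, NumPy 2.4.6 and pandas 2.3.3. Since reads are PCR products and carry no molecular identifiers, errors were taken from replicates and viewpoints, not from read counts. A fragment end was called unique if its 30 bases occurred once in the reference, organelles included. Alternatives covered the second-site filter, enzyme, matching, scale, limits of density and distance, batches and replicates. The ratio was tested on simulated reads with a known island factor. Reads were drawn independently per fragment, without sharing of reads with several matches, so the simulation cannot show effects of that sharing.

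The members, lists and comparisons were chosen with earlier results of these data known. Named are all viewpoints, the 5 islands of highest density, the 5 longest runs, the 5 islands of highest and of lowest mean contact, the genes on them, and 13 loci known for silencing. Other names were chosen after their values were seen. Gene positions and names are those of RefSeq (TAIR10.1).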

Additional observations from a re-analysis of the deposited data

Results flagged for a closer look

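The log2 ratio of island to comparison reads from MEA F6 was -0.12, below 0 in both replicates, while 11 viewpoints were above 0 in both. This difference between viewpoints was not tested, and MEA F6 was singled out by its value.

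With unique ends the DpnII viewpoints exceeded the NlaIII viewpoints by 0.29 on the log2 scale, with values of 0.09 to 0.30 in 6 viewpoints against -0.18 to 0.02 in 7, which did not overlap (exact permutation test of viewpoints, two-sided, p = 0.000583). This p-value is the smallest that 6 against 7 viewpoints allow. MEA F6 and MEA F8, at one gene, counted as separate viewpoints, as did SWN, hk4s and YAO on one arm. The comparison was chosen after the values were seen. Within the first batch the difference was 0.34 (p = 0.0357 by the exact test, the smallest that 2 against 6 viewpoints allow, and the 2 NlaIII viewpoints there are both at MEA). With all kept fragments it was 0.08 (p = 0.193 by the exact test). The enzymes also differ in the viewpoints and positions they were used for. All 6 DpnII viewpoints had primers with the sequencing adapter, while the later NlaIII viewpoints had adapters ligated afterwards. The part of enzyme, position and adapter step in the difference was not tested.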

How the results depend on the processing

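Of the alternatives, 21 of 27 kept the direction and the side of the test's threshold for the ratio of islands to comparison fragments, 20 of 23 for the percentage of fragments read and 24 of 27 for the ratio to transposon-bearing fragments. Each count includes the replicate block described below, which returns the main values by construction. Leaving out one replicate gave 0.11 to 0.17, 10.1 to 10.6 points and 0.25 to 0.29, in the same order. With only unique ends the first 2 were 0.048 and 1.33 points, no longer past the threshold. In settings added after the data were seen, unique ends gave 0.079 as a difference of mean log2(RPM + 1), and with NlaIII viewpoints alone -0.084, -1.02 points and 0.086, against 0.20, 4.07 points and 0.30 with DpnII viewpoints alone, where all 6 were positive. Without matching the ratios to all and to transposon-bearing fragments reversed to -0.16 and -0.24. NlaIII viewpoints alone gave 0.10, and the later batch alone 0.16, 10.5 points and 0.28, where the exact test cannot go below p = 0.0625.

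The differences between kinds of islands, none past the threshold, changed sign or passed it in many settings. Distal minus proximal was 0.11 as mean log2(RPM + 1), 0.12 with strata without the arm and 0.44 without matching, all past the threshold, and -0.023 at a density of 40 or more and -0.0050 at 3.5 Mb or more. Gene-free minus gene-bearing was -0.012 without the second-site filter, -0.068 with unique ends, -0.11 per genomic DNA read, -0.0068 with bins of 0.5 Mb, -0.33 without matching, -0.039 at 3.5 Mb or more, -0.047 with each run counted once, -0.068 in the later batch and -0.086 with NlaIII, and 0.25 at a density of 40 or more and 0.13 with DpnII. Of these, the values per genomic DNA read and without matching passed the threshold below 0 and the last 2 above 0. Dense minus sparse was 0.18 as mean log2(RPM + 1) and 0.11 with islands from a density of 10, both past the threshold, and -4.04e-05 without the second-site filter, -0.014 with unique ends, -0.0035 without matching, -0.00046 at 3.5 Mb or more, -0.042 with each run counted once and -0.013 in the first batch. Later minus first batch was -0.0062 without the second-site filter, -0.031 with NlaIV, -0.18 with unique ends, -0.0100 as mean log2(RPM + 1), -0.0065 with bins of 0.5 Mb, -0.0042 with strata without the arm, and -0.019 to 0.069 when one replicate was left out. The cause of these changes was not tested.

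Replicate letters follow sequencing lanes and did not pair the libraries. In the later batch replicate A exceeded its viewpoint mean in 5 of 5 viewpoints, and in the first in 5 of 8. A fit with this letter as replicate block gave the same ratio, 0.14, by construction, since every viewpoint has both letters, and so tells nothing of the letter's effect.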
